A study of Mus musculus with 10 samples.

Results

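The leukocyte integrin genes are described here in RNA sequencing of mouse alveolar macrophages, which live in the air spaces of the lung. The set held 10 genes, taken by symbol from the deposited table, of 26173 genes in all: the 7 α chain genes Itgax, Itgam, Itgal, Itgae, Itgav, Itga4 and Itga6, and the 3 β chain genes Itgb1, Itgb2 and Itgb7. All 10 passed the filter on low values (at least 1 FPKM in at least 2 columns), as did 11336 genes of the series. FPKM are fragments per kilobase of transcript, scaled to library depth, and levels of different chains are set side by side on that scale. Whether amplification from 100 pg of RNA weighed all transcripts alike was not tested, which limits ratios between genes.

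The series asked what happens to alveolar macrophages when Bach2, a transcriptional repressor, is deleted. All mice were labelled C57BL/6, female and 16 weeks old. The 5 groups, with 2 samples each, were as follows. The conditional knockout combined floxed Bach2 with a Cre under Cd4 control, which acts in T cells, so loss of Bach2 in the macrophages is not implied. Macrophages of these mice with a normal surface marker phenotype (normal-marker cKO) and with an aberrant one (aberrant-marker cKO) were profiled apart. Controls of that line (conditional control) were the third group, and the labels do not say which of the alleles those mice carried. The remaining groups were mice with a germline Bach2 knockout (germline KO) and wild-type mice (wild type). The labels do not name the surface markers used for the sort. Integrins such as CD11b, CD11c and CD103 are common sort markers, so whether an integrin level in the normal-marker and aberrant-marker libraries follows from the gate cannot be told apart from other differences.

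An integrin is a surface adhesion receptor made of 1 α and 1 β chain, and a chain without a partner is generally kept inside the cell. The β2 chain, encoded by Itgb2 and limited to leukocytes, pairs with αL (Itgal), αM (Itgam), αX (Itgax) and αD (Itgad). The β7 chain pairs with αE (Itgae) and α4 (Itga4), and the widely expressed β1 chain with α4, α6 (Itga6), αv (Itgav) and many others. Resident alveolar macrophages are known for high CD11c (Itgax) and little CD11b (Itgam), whereas monocytes and many other lung macrophages carry CD11b.

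Samples of the same group differed by little more than sampling noise. Pearson's r of log2(FPKM + 1) was 0.993 to 0.998 within groups and 0.685 to 0.853 between them, and the squared difference of estimated counts, divided by their sum, had a median of 0.539 to 0.996 within groups, against 0.455 for pure sampling and 56.2 to 88.3 between groups. The labels do not say whether the 2 samples of a group came from separate mice. From their closeness they were counted as 2 runs of 1 library, a reading that rests on approximate depths. With 1 library per group there is no replicate check and no p-value. Depth, estimated from the lowest values, was 7.41 to 9.33 M fragments in the 10 samples, which makes a single read of a 3 kb transcript equal to 0.0357 to 0.0450 FPKM. Bach2 itself reached at most 0.0761 FPKM in any sample, near the worth of a single read, and could not check the genotypes. The germline KO and wild-type libraries go against the label female: the Y-linked gene Eif2s3y averaged 39.9 FPKM in germline KO and 60.8 FPKM in wild type, against at most 0.146 FPKM in any sample of the conditional line.

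Each library was made from 100 pg of RNA, where a transcript can be lost by chance. As a yardstick, the 2 control libraries were set against each other. They differ in mouse line and in the Y-linked Eif2s3y, so the shares can hold real differences beside chance loss. Of the genes at 1 to 5 FPKM in the conditional control, 26.5% were under 0.1 FPKM in the wild type. This share was 11.6% at 5 to 20 FPKM, 1.35% at 20 to 50 FPKM and 0 of 1396 genes at 50 to 200 FPKM. In the other direction, present in the wild type and under 0.1 FPKM in the conditional control, the shares were 15.3%, 6.21% and 0.654%, and 1 of 1370 genes at 50 to 200 FPKM. A difference of a gene was called where it reached 2 log2 units (4-fold) on log2(FPKM + 1) in the means and whichever runs were paired, and the higher library held 20 FPKM or more. Fold changes on the log2(FPKM + 1) scale understate changes of low genes.

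Among the integrins of the β2 family, the CD11c gene Itgax was high in every library and lowest in the aberrant-marker cKO. Itgax measured 297.7 and 294.3 FPKM in the 2 runs of the normal-marker cKO, 124.7 and 122.4 FPKM in the aberrant-marker cKO, and 252.8 and 252.9 FPKM in the conditional control. It measured 364.5 and 364.7 FPKM in the germline KO and 289.4 and 287.8 FPKM in the wild type. The aberrant-marker cKO was thus the low library, 2.05-fold below the conditional control (log2 difference -1.03, not called), and the germline KO the high one, 1.26-fold above the wild type (0.34, not called). The 2 controls were 1.14-fold apart.

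The CD11b gene Itgam separated the libraries far more. Itgam measured 26.9 and 25.5 FPKM in the aberrant-marker cKO and 100.8 and 97.7 FPKM in the germline KO. It was listed at 0 in both runs of the normal-marker cKO and of the wild type, and stood at 2.60 and 2.23 FPKM in the conditional control. The aberrant-marker cKO and the germline KO were the high libraries. Itgam was called higher in the aberrant-marker cKO than in the conditional control, 10.8-fold (log2 difference 2.99), and in the germline KO than in the wild type (6.65). Because the wild type was listed at 0, no fold is given there. Against the conditional control, which is of another mouse line, the germline KO was 41.1-fold higher. This fold and the 10.8-fold above rest on a low level in the conditional control, 2.42 FPKM. Of its genes at 1 to 5 FPKM, 26.5% were under 0.1 FPKM in the wild type.

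The gene of αL, Itgal, which with β2 forms the ICAM receptor LFA-1, was low in the same pair of libraries. Itgal measured 16.1 and 13.2 FPKM in the aberrant-marker cKO and 13.0 and 14.2 FPKM in the germline KO. It measured 70.7 and 70.5 FPKM in the normal-marker cKO, 62.6 and 62.1 FPKM in the conditional control and 74.5 and 75.5 FPKM in the wild type. The 5 libraries fell into a low pair and a high trio. Itgal was called lower in the germline KO than in the wild type, by 5.51-fold (log2 difference -2.38). In the aberrant-marker cKO it was 4.25-fold below the conditional control (-2.02) and narrowly missed the call, because the pairings of runs ran between -2.16 and -1.89, and without run 1 of every library it was called (-2.15). Against the normal-marker cKO, at 4.82-fold lower, it was called (-2.19).

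Itgb2, the shared β2 chain, was the most abundant integrin transcript in every library. It measured 1418 and 1407 FPKM in the normal-marker cKO, 421 and 413 FPKM in the aberrant-marker cKO and 1209 and 1218 FPKM in the conditional control. It measured 1051 and 1043 FPKM in the germline KO and 974 and 969 FPKM in the wild type. The aberrant-marker cKO lay apart from the other 4, 2.91-fold below the conditional control (log2 difference -1.54, not called). The germline KO was 1.08-fold above the wild type, less than the 1.25-fold between the 2 controls.

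**Figure D1:**
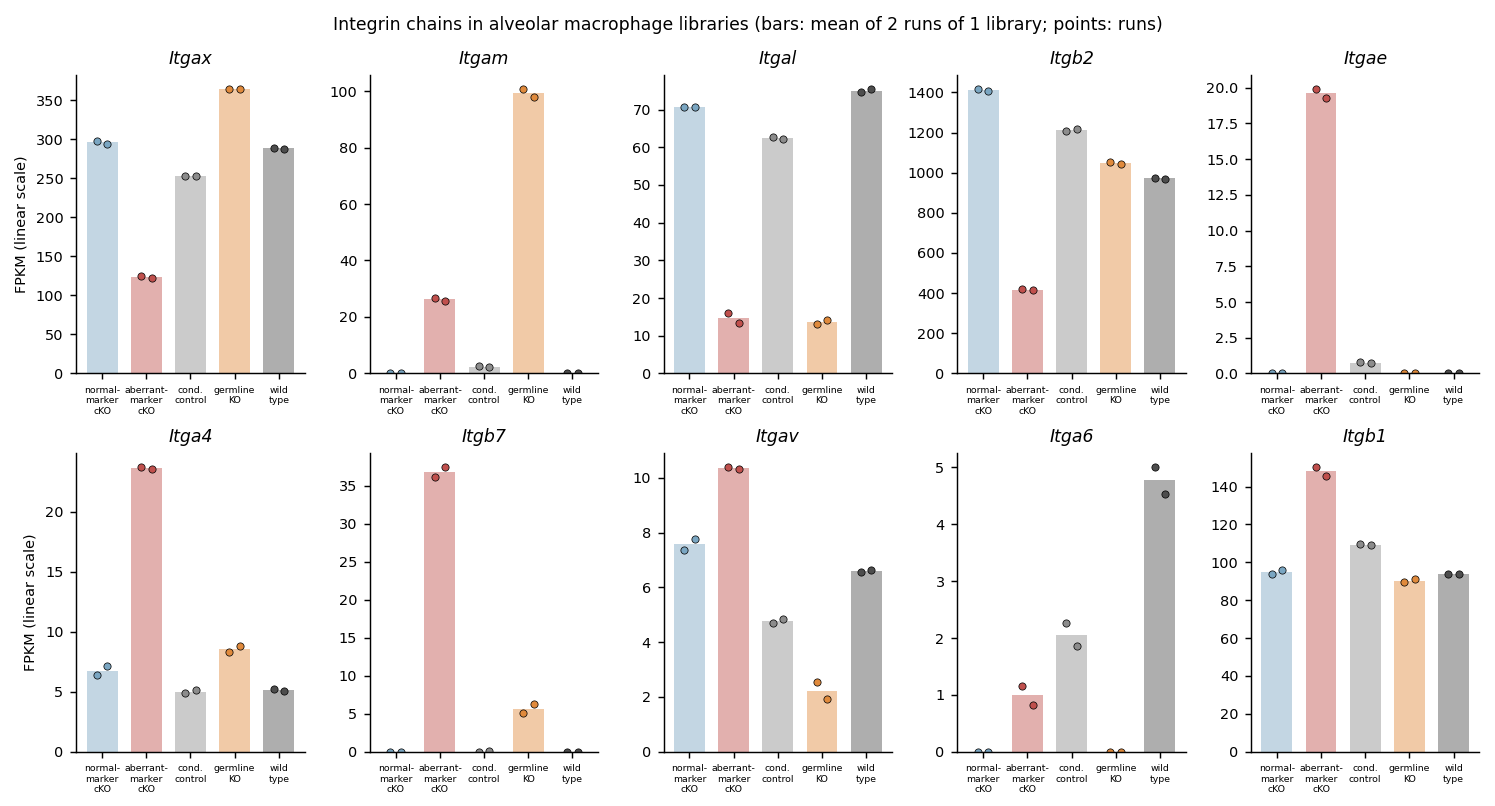
Levels of the 10 integrin chain genes in FPKM (vertical axes, linear and starting at 0, each gene on its own scale) in the 5 libraries (horizontal axes). Bars are the mean of the 2 runs of 1 library and points are the runs. Itgam stands at 26.2 FPKM in the aberrant-marker cKO and 99.3 FPKM in the germline KO, Itgae at 19.6 FPKM in the aberrant-marker cKO, and Itgb7 at 36.8 FPKM there.

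The RNA levels of the β2 partners were also set against each other within a library. These are ratios of RNA levels in bulk. They do not show protein, pairing of chains, or whether the chains lie in the same cells. Itgax made up 75.2% to 80.7% of the summed FPKM of Itgal, Itgam and Itgax in each of the 5 libraries. Itgam and Itgal shared the rest unequally. Itgam held 15.9% in the aberrant-marker cKO and 20.8% in the germline KO, against 0.761% in the conditional control and none in the normal-marker cKO and the wild type. Itgal held 8.91% in the aberrant-marker cKO and 2.85% in the germline KO, against 19.3% in the normal-marker cKO, 19.6% in the conditional control and 20.6% in the wild type. The ratio of Itgam to Itgal was 1.80 in the aberrant-marker cKO, 7.31 in the germline KO and 0.0387 in the conditional control.

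The sum of these α chains over Itgb2 was 0.260 in the normal-marker cKO, 0.394 in the aberrant-marker cKO and 0.262 in the conditional control, and 0.456 in the germline KO against 0.374 in the wild type. The runs of a library lay close together in this ratio, 0.398 and 0.390 in the aberrant-marker cKO being the widest pair. In the aberrant-marker cKO both sides were low, 164 FPKM of α chains to 417 FPKM of Itgb2, against 318 to 1213 FPKM in the conditional control. In the germline KO the α sum was 477 FPKM to 1047 FPKM of Itgb2, against 364 to 971 FPKM in the wild type. The 2 controls, at 0.374 in the wild type and 0.262 in the conditional control, were about as far apart as the aberrant-marker cKO and its own control.

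**Figure D2:**
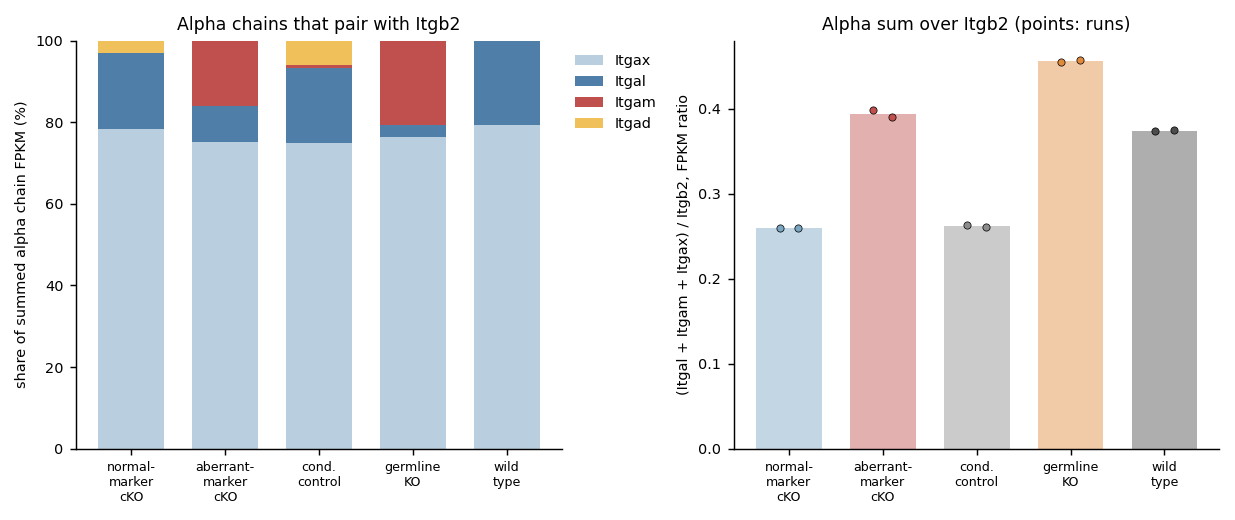
Left, the share (percent, vertical axis) of each α chain gene in the summed FPKM of the α chains that pair with β2, Itgad included, in the 5 libraries. Right, the ratio of Itgal, Itgam and Itgax summed to Itgb2 (bars, mean; points, runs), which was 0.394 in the aberrant-marker cKO and 0.456 in the germline KO. Itgam fills 15.9% and 20.8% there, and Itgad fills a share in the normal-marker cKO (2.84%) and the conditional control (5.94%).

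In the mouse genome (GRCm38.p6) Itgam, Itgax and Itgad follow each other as neighbouring coding genes on chromosome 7, yet their levels did not move together. Promoter sequence of 6 of the 10 members was matched in the RefSeq table of that build. The 250 bases before the start site of Itgam and Itgax are shown because these neighbours had unlike patterns, and those of Itgb7 because it was called with Itgam in the aberrant-marker cKO. They lie on the plus strand at chr7:128062390-128062639 (Itgam) and chr7:128129300-128129549 (Itgax), and on the minus strand at chr15:102231936-102232185 (Itgb7). Capitals mark matches, on either strand, to GAGGAA, the core of the binding motif of the myeloid factor PU.1, and to TGANTCA, the core of the AP-1 motif. No matches overlapped.
Itgam: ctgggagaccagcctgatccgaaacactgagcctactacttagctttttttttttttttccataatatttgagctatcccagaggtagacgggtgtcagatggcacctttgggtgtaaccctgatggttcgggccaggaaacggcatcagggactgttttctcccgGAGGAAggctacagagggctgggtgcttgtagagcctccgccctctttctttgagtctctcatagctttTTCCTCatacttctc
Itgax: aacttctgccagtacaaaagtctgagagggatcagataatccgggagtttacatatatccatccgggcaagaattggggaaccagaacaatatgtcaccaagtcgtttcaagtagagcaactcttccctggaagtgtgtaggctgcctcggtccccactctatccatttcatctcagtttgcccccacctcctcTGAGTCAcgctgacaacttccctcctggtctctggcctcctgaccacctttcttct
Itgb7: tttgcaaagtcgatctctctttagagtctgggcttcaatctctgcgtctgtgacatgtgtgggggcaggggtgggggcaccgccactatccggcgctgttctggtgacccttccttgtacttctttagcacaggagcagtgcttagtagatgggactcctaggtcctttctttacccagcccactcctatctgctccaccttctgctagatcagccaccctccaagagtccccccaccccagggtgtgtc
The Itgam window held 2 GAGGAA matches, beginning 84 and 15 bases before the start, and the Itgax window 1 TGANTCA match, beginning 56 bases before it. The Itgb7 window held neither. Of the matched windows not shown, that of Itgav held 2 GAGGAA matches, that of Itgb1 held 1, and that of Itga4 held neither motif. Of all 32851 promoter windows of this length in the table, 23.3% held GAGGAA and 6.75% held TGANTCA, and nothing about binding is drawn from a match or its absence.

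The chains that form β7 integrins were each highest in the aberrant-marker cKO. Itgb7 measured 36.2 and 37.5 FPKM there and 5.09 and 6.23 FPKM in the germline KO. It was listed at 0 in the normal-marker cKO and the wild type, and at 0 and 0.0459 FPKM in the conditional control. Itgb7 was called higher in the aberrant-marker cKO than in the conditional control (log2 difference 5.21) and than in the normal-marker cKO (5.24). The difference of the germline KO from the wild type (2.74) was past 4-fold but under the floor of 20 FPKM. At 5 to 20 FPKM, 11.6% or 6.21% of genes present in a control were missing from the other, by direction.

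Itgae, encoding the CD103 chain that with β7 binds E-cadherin on epithelium, measured 19.9 and 19.3 FPKM in the aberrant-marker cKO. In the conditional control it stood at 0.796 and 0.723 FPKM, and it was listed at 0 in both runs of the normal-marker cKO, the germline KO and the wild type. The aberrant-marker cKO was 25.8-fold above its control (log2 difference 3.55), and the call was missed only at the floor of 20 FPKM. A single RefSeq transcript, NM_008399.2, held 92.6% and 96.4% of Itgae in its runs.

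Itga4, whose product pairs with β7 or β1 and binds VCAM-1 and MAdCAM-1, was present in every library. It measured 6.42 and 7.14 FPKM in the normal-marker cKO, 23.7 and 23.6 FPKM in the aberrant-marker cKO, and 4.87 and 5.16 FPKM in the conditional control. It measured 8.36 and 8.86 FPKM in the germline KO and 5.27 and 5.10 FPKM in the wild type. The aberrant-marker cKO was the high library, 4.72-fold above the conditional control (log2 difference 2.04), but 1 pairing of runs fell just short of the threshold, so that the gene was not called. Without run 2 of every library it was called, at 2.08. The germline KO was 1.66-fold above the wild type (0.63, not called).

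The β7 balance could be formed in 2 libraries only. The sum of Itgae and Itga4 was 1.18 times Itgb7 in the aberrant-marker cKO, at 43.3 to 36.8 FPKM, and 1.53 times in the germline KO, at 8.61 to 5.66 FPKM. In the aberrant-marker cKO this sum held both partners, whereas in the germline KO it was Itga4 alone. The other libraries had 5.19 to 6.78 FPKM of these α chains and under 0.1 FPKM of Itgb7.

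Itgb1 was the steadiest of the β chains. It measured 93.7 and 96.2 FPKM in the normal-marker cKO, 150.3 and 145.7 FPKM in the aberrant-marker cKO and 109.5 and 108.9 FPKM in the conditional control. It measured 89.5 and 91.0 FPKM in the germline KO and 93.8 and 94.1 FPKM in the wild type. The aberrant-marker cKO was 1.35-fold above the conditional control (log2 difference 0.43, not called), while the controls were 1.16-fold apart. As Itgb2 was low and Itgb1 high in the aberrant-marker cKO, the ratio of Itgb2 to Itgb1 was 2.82 there, against 11.1 in the conditional control. It was 14.9 in the normal-marker cKO, and 11.6 in the germline KO against 10.3 in the wild type. Itgb7 came to 0.249 of Itgb1 in the aberrant-marker cKO and 0.0627 in the germline KO.

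Itgav, whose product binds RGD-containing matrix proteins and takes part in TGF-β activation, stayed low. It measured 7.36 and 7.78 FPKM in the normal-marker cKO, 10.4 and 10.3 FPKM in the aberrant-marker cKO and 4.70 and 4.86 FPKM in the conditional control. It measured 2.54 and 1.92 FPKM in the germline KO and 6.55 and 6.62 FPKM in the wild type. The germline KO was the lowest library, 2.95-fold below the wild type (log2 difference -1.23), and the aberrant-marker cKO the highest, 2.17-fold above the conditional control (0.98). Neither was called. Itga6, a laminin receptor chain, was at 1.15 and 0.829 FPKM in the aberrant-marker cKO and 2.26 and 1.86 FPKM in the conditional control, and was listed at 0 in the normal-marker cKO. It was listed at 0 in the germline KO too, against 5.01 and 4.54 FPKM in the wild type. At 1 to 5 FPKM, where 26.5% or 15.3% of genes were missing between the controls by direction, a lower level of Itga6 and chance loss of its transcript cannot be told apart.

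The sum of Itga4, Itga6 and Itgav over Itgb1 was highest in the aberrant-marker cKO, but over all measured β1 partners that library was the lowest (0.455, against 0.530 to 0.768 in the others). The ratio was 0.151 in the normal-marker cKO, 0.237 in the aberrant-marker cKO and 0.108 in the conditional control, and 0.120 in the germline KO against 0.176 in the wild type. In the aberrant-marker cKO Itga4 gave 23.7 of the 35.0 FPKM of this sum. In each library Itgb1 exceeded these partners by more than 4-fold, but further β1 partners were measured too, as given with the other chains.

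Counted over the 10 members, 2 were called higher (Itgam and Itgb7) and none lower in the aberrant-marker cKO against the conditional control, where 4.09% of all genes were called higher and 3.76% lower. The members' median log2 difference was 0.70, against 0 for all genes. Because the members were chosen with results known, this is a description only. Against the wild type instead, Itgam and Itgb7 were called higher and Itgal lower, at 4.75% and 3.91% of all genes. In the normal-marker cKO none of the 10 was called against the conditional control (0.935% of all genes higher, 0.838% lower) or against the wild type (1.37% and 1.45%). Its largest differences from the conditional control were in the low chains, Itgam (-1.77) and Itga6 (-1.61), both listed at 0 in it.

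Between the macrophage fractions of the knockout mice, Itgam and Itgb7 were called higher and Itgal lower in the aberrant-marker cKO than in the normal-marker cKO, with 4.02% of all genes called higher and 3.26% lower. These fractions are compared with the same conditional control above, so the comparisons share libraries. In the germline KO, Itgam was called higher and Itgal lower than in the wild type, with 2.73% and 3.36% of all genes called. The members' median was 0.05. With the conditional control in place of the wild type, the same pair was called (Itgam 4.88, Itgal -2.12), at 2.08% and 3.27% of all genes. The controls differed in none of the 10 members by the rule, wild type against conditional control, where 0.935% of all genes were called higher and 1.17% lower.

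**Figure D3:**
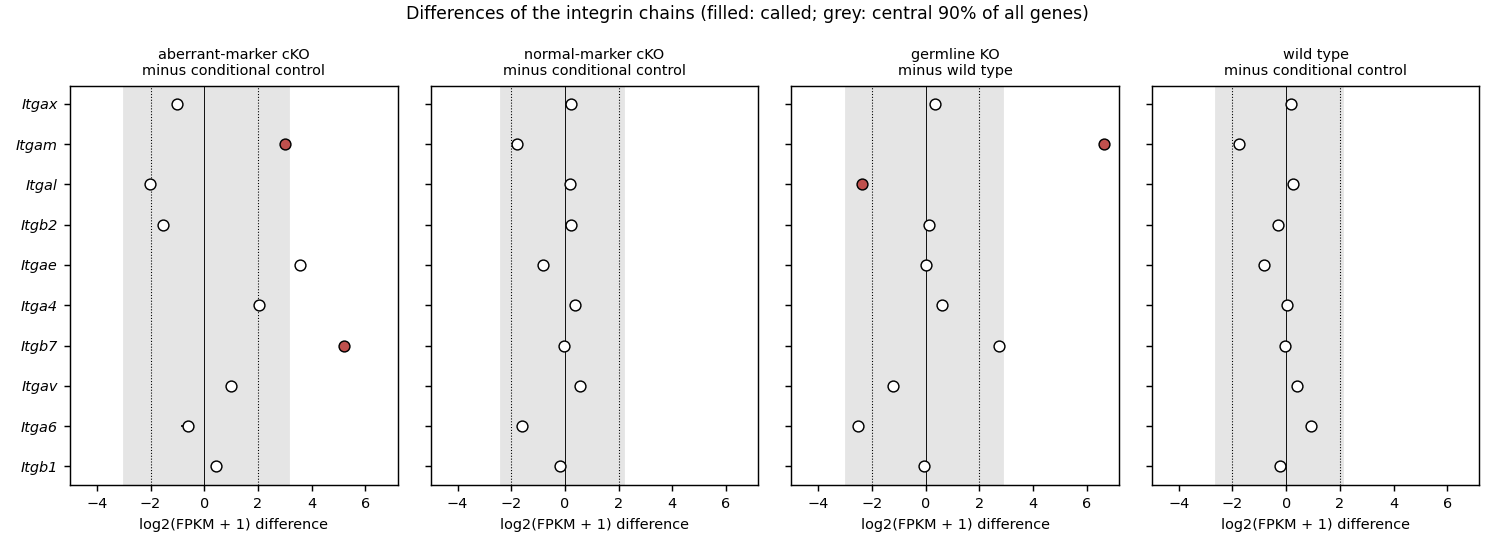
Log2(FPKM + 1) differences (horizontal axes) of the 10 members (rows) in 4 comparisons of libraries; points are the differences of means, thin bars the range over pairings of runs, filled points are called, dotted lines mark 2 log2 units and the grey band holds the 5th to 95th percentile of all 11336 genes. Itgam lies at 2.99 in the aberrant-marker cKO panel and at 6.65 in the germline KO panel, and no point is filled for the normal-marker cKO or between the controls.

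Some markers of other cell types differed between the libraries as well, and their part in these results was not tested. Fewer cells of a type and less RNA per cell cannot be told apart in bulk RNA. In the aberrant-marker cKO 15 of 18 T cell markers were at 1 FPKM or more, against 2 in the conditional control and 2 in the normal-marker cKO. Cd3e was at 17.7 FPKM, Cd3g at 24.1, Cd4 at 16.9 and Lck at 29.6, while Cd8a, Cd8b1 and Cd5 were under 0.01 FPKM. The summed level of the list was 347 to 353 FPKM in the aberrant-marker cKO, 267 to 270 FPKM in the normal-marker cKO and 331 to 334 FPKM in the conditional control. Cd2 gave 45.7 FPKM of that sum in the aberrant-marker cKO but nearly all of it in the other libraries of this line, with 263 FPKM in the normal-marker cKO and 330 FPKM in the conditional control.

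Of 15 dendritic cell markers 12 were at 1 FPKM or more in the aberrant-marker cKO, summing to 7469 to 7488 FPKM, against 623 to 639 FPKM and 9 markers in the conditional control and 642 to 654 FPKM and 9 markers in the normal-marker cKO. Ccr7 was at 1564 FPKM, Flt3 at 37.3 and Zbtb46 at 34.2, with Xcr1 and Siglech under 0.01 FPKM. Some markers were lower than in the conditional control: Sirpa was at 128 against 530 FPKM, and Clec9a at 0.62 against 1.9 FPKM. Xcr1 was at 2.09 FPKM in the conditional control. The genes Itgae and Itgb7 are expressed by T cells and by CD103+ dendritic cells as well, and Itga4 by most lymphocytes. Of 15 alveolar macrophage markers 12 were at 1 FPKM or more in the aberrant-marker cKO, and Siglec5 (0.134 FPKM), Marco (0.258 FPKM) and Cidec (0.266 FPKM) were not. Among those present, Ear1 was at 2.27 FPKM in the aberrant-marker cKO and 966 FPKM in the conditional control, Ear2 at 315 FPKM in the aberrant-marker cKO and 3670 FPKM in the conditional control, and Krt79 at 13.8 FPKM in the aberrant-marker cKO and 477 FPKM in the conditional control. The list summed to 9301 to 9421 FPKM in the aberrant-marker cKO and 18365 to 18836 FPKM in the conditional control, with Chil3 at 8291 FPKM in the aberrant-marker cKO and 9166 FPKM in the conditional control. The label alveolar macrophage thus rests on part of its markers in that library.

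In the germline KO, T cell markers at 1 FPKM or more numbered 2 of 18, with 16 under 0.01 FPKM, Cd3d, Cd3e and Cd3g among them. The list summed to 66.0 to 67.2 FPKM, against 1 marker and 447 to 464 FPKM in the wild type. Cd2 gave nearly all of the wild-type sum, at 455 FPKM, and was at 24.9 FPKM in the germline KO. Il7r went the other way, at 41.7 FPKM in the germline KO and 0.0156 FPKM in the wild type. Dendritic cell markers in the germline KO numbered 9 of 15 (828 to 830 FPKM), against 5 in the wild type (774 to 783 FPKM). The near-equal sums held unlike genes: Ccl22 was at 128 FPKM in the germline KO and 0.140 FPKM in the wild type, Ccl17 at 161 FPKM in the germline KO and 0.296 FPKM in the wild type, and Ccr7 at 71.6 FPKM in the germline KO and 0.0333 FPKM in the wild type. Sirpa, which macrophages express too, was at 343 FPKM in the germline KO and 668 FPKM in the wild type, and Flt3 was at 0.667 FPKM in the germline KO. Markers of monocyte-derived and interstitial macrophages numbered 8 of 13 in the germline KO, summing to 436 to 439 FPKM, against 3 of 13 and 243 to 252 FPKM in the wild type. In the aberrant-marker cKO the same list had 8 of 13 markers and 1016 to 1019 FPKM, against 6 and 206 to 207 FPKM in the conditional control. The complement gene C1qb of that list was at 375 FPKM in the aberrant-marker cKO and at 154 FPKM in the germline KO, while Plac8, Lyve1 and Folr2 were listed at 0 in both. Other genes of the list were lower: Fcgr1 was at 3.87 FPKM in the germline KO and 38.6 FPKM in the wild type, and at 7.58 FPKM in the aberrant-marker cKO and 23.6 FPKM in the conditional control. Cd14 was at 45.8 FPKM in the germline KO and 125 FPKM in the wild type.

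Neutrophils also carry Itgam, and their markers numbered 3 of 10 in the aberrant-marker cKO and 2 of 10 in the germline KO, against 3 of 10 in each control. Levels moved both ways in the germline KO. S100a8 was at 43.7 FPKM against 4.83 FPKM in the wild type, and Cxcr2 at 6.3 against 0.7 FPKM. Mmp8 was at 0.782 FPKM against 27 FPKM in the wild type, and Csf3r at 0.109 against 9.8 FPKM. In the aberrant-marker cKO the list summed to 11.2 to 20.7 FPKM, against 64.3 to 69.6 FPKM in the conditional control. Of 15 alveolar macrophage markers the germline KO had 12 at 1 FPKM or more, without Siglec5 (0.0247 FPKM), Cidec (listed at 0) and Ear1 (0.964 FPKM). Among those present, Marco was at 13.5 FPKM in the germline KO and 339 FPKM in the wild type, Ear2 at 255 FPKM in the germline KO and 5139 FPKM in the wild type, and Krt19 at 26.5 FPKM in the germline KO and 522 FPKM in the wild type. The list summed to 48575 to 48805 FPKM in the germline KO and 20603 to 20883 FPKM in the wild type, and Chil3 alone gave 46574 FPKM in the germline KO and 9278 FPKM in the wild type. Of the other lists, NK and innate lymphoid markers reached 4 of 11 in the aberrant-marker cKO (37.6 to 37.8 FPKM summed), against 1 of 11 in the conditional control (2.68 to 2.86 FPKM). B and plasma cell markers numbered 1 of 7 in every library, lung epithelial markers 3 or 4 of 12, endothelial and stromal markers 1 to 3 of 10, and eosinophil, basophil and mast cell markers 0 or 1 of 10.

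The remaining integrin chains were few. Of 16 further α and β chain genes in the table, 6 reached 1 FPKM in any library and 10 did not. Itgad, the neighbour of Itgax that encodes αD, was at 12.04 and 9.41 FPKM in the normal-marker cKO and 21.7 and 18.5 FPKM in the conditional control. It was under 0.01 FPKM in the aberrant-marker cKO, the germline KO and the wild type. Of these genes it alone was called, lower in the aberrant-marker cKO than in the conditional control (log2 difference -4.40) and lower, by the same -4.40, in the wild type than in the conditional control. Of all genes, 3.76% and 1.17% were called lower in these comparisons. Itgad therefore differed between the controls as much as between the aberrant-marker cKO and its control.

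Itga5, the fibronectin receptor chain and a β1 partner, was at 36.3 and 37.2 FPKM in the normal-marker cKO, 30.1 and 32.2 FPKM in the aberrant-marker cKO and 55.3 and 53.0 FPKM in the conditional control. Its level exceeded the sum of Itga4, Itga6 and Itgav in every library but the aberrant-marker cKO, where that sum was 35.0 FPKM. Itga1, a collagen receptor chain, was at 4.00 and 4.02 FPKM in the normal-marker cKO, and at 10.8 and 10.7 FPKM in the germline KO against 0 in the wild type. Itgb5, an αv partner, averaged 66.2 FPKM in the normal-marker cKO, 45.8 FPKM in the aberrant-marker cKO and 98.8 FPKM in the conditional control, and 58.8 FPKM in the germline KO against 112 FPKM in the wild type. Itgb5 thus exceeded Itgav in every library. Itgb3, another αv partner, was highest in the normal-marker cKO at 3.68 and 2.26 FPKM. Itga9 reached 1.27 and 0.923 FPKM in the aberrant-marker cKO and was under 0.1 FPKM elsewhere.

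**Figure D4:**
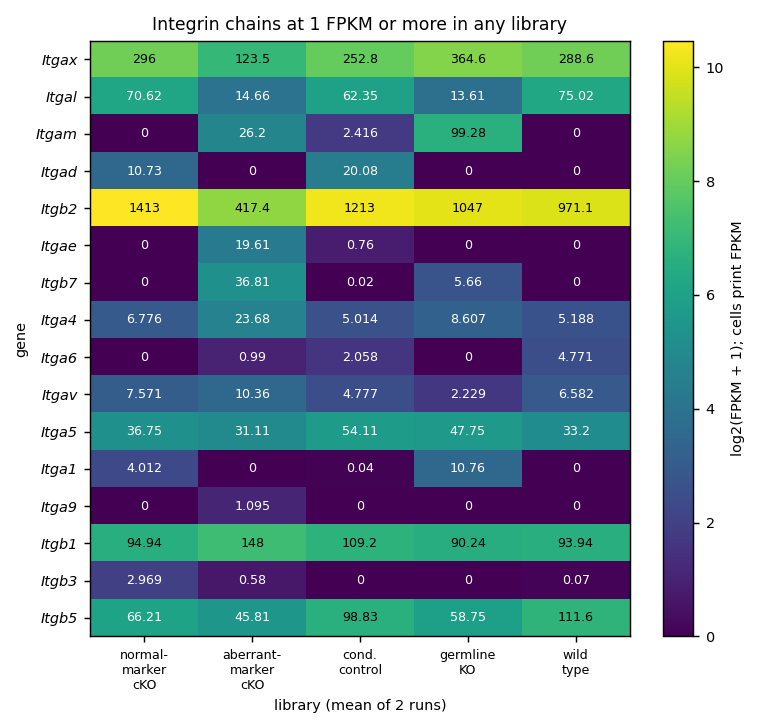
Mean level of 16 integrin chain genes (rows; the 10 members and the 6 further chains at 1 FPKM or more in any library) in the 5 libraries (columns). Colour is log2(FPKM + 1) and the printed number is the mean FPKM of 2 runs. Itgb2 is the highest row in every column, and Itgad fills the normal-marker cKO and conditional control columns only.

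Genes acting around the integrins were taken as lists. Of 17 ligand and counter-receptor genes past the filter, 1 was called higher and none lower in the aberrant-marker cKO, and likewise in the normal-marker cKO, against the conditional control, beside 4.09% and 0.935% of all genes called higher. In both it was Mfge8, a bridging protein that links phosphatidylserine of dying cells to αv integrins, at 180 FPKM in the aberrant-marker cKO and 135 FPKM in the normal-marker cKO, against 10.8 FPKM in the conditional control (log2 differences 3.94 and 3.53). In the germline KO 2 ligand genes were called higher and 1 lower than in the wild type, beside 2.73% and 3.36% of all genes. Mfge8 was at 423 FPKM in the germline KO and 13.9 FPKM in the wild type (4.83). Spp1, encoding the integrin ligand osteopontin, was at 2234 FPKM in the germline KO and 455 FPKM in the wild type (2.29). F11r, the junctional adhesion molecule bound by αLβ2, was at 31.7 FPKM in the germline KO and 138 FPKM in the wild type (-2.08). Spp1 was also lower in the aberrant-marker cKO, at 262 FPKM, than in the normal-marker cKO, at 1756 FPKM (-2.74). The conditional control lay between them, at 457.5 FPKM. Of all genes, 3.26% were called lower between these fractions.

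Of 19 genes of inside-out activation and tail binding, 2 were called higher and none lower in the aberrant-marker cKO against the conditional control, beside 4.09% and 3.76% of all genes. Itgb1bp1, a binder of the β1 tail, was at 31.5 FPKM in the aberrant-marker cKO and 5.50 FPKM in the conditional control (log2 difference 2.32). The conditional control was the lowest library for Itgb1bp1, which was at 26.5 FPKM in the normal-marker cKO, 28.0 FPKM in the germline KO and 10.6 FPKM in the wild type. Slc3a2, the CD98 heavy chain that associates with β chains, was at 311 FPKM in the aberrant-marker cKO and 65.7 FPKM in the conditional control (2.23). It was at 94.8 FPKM in the normal-marker cKO, 290.6 FPKM in the germline KO and 133.4 FPKM in the wild type. Stk4, the kinase MST1, was called higher in the aberrant-marker cKO, at 73.1 FPKM, than in the normal-marker cKO, at 14.1 FPKM. Of all genes, 4.02% were called higher in that comparison. Dok1, an adaptor that binds β tails, was called higher there as well (27.0 against 0.0446 FPKM), but it also differed between the controls, being listed at 0 in the wild type against 21.6 FPKM in the conditional control. It was the 1 gene of this list called in the normal-marker cKO against the conditional control, lower by the rule (log2 difference -4.43). Of all genes, 0.838% were called lower there. Of this list 1 gene was called in the germline KO, lower than in the wild type, beside 3.36% of all genes. It was Rassf5, the RAPL protein that couples Rap1 to αL, at 1.37 FPKM in the germline KO and 82.3 FPKM in the wild type (-5.13). Rassf5 was at 25.3 FPKM in the aberrant-marker cKO and 52.3 FPKM in the conditional control, not called.

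Of 24 genes of outside-in signalling and focal adhesion past the filter, 4 were called lower and 1 higher in the aberrant-marker cKO against the conditional control, beside 3.76% and 4.09% of all genes. The list's median log2 difference was -0.38, against 0 for all genes. Parvg, a leukocyte parvin of focal adhesions, was at 2.05 FPKM in the aberrant-marker cKO and 64.3 FPKM in the conditional control. Fgr, a Src family kinase that acts behind β2 integrins in myeloid cells, was at 5.94 FPKM in the aberrant-marker cKO and 125 FPKM in the conditional control. Plcg2, a phospholipase, was at 5.70 FPKM in the aberrant-marker cKO and 41.7 FPKM in the conditional control, but at 21.8 FPKM in the wild type. Ptk2b, the kinase PYK2, was at 10.2 FPKM in the aberrant-marker cKO and 46.5 FPKM in the conditional control. The adaptor gene Crkl was the 1 called higher, at 20.3 FPKM in the aberrant-marker cKO and 3.06 FPKM in the conditional control. The conditional control was its lowest library, with Crkl at 12.2 FPKM in the normal-marker cKO, 11.4 FPKM in the germline KO and 10.6 FPKM in the wild type. Against the normal-marker cKO the same 4 genes were called lower and none higher, beside 3.26% and 4.02% of all genes. Both comparisons share the aberrant-marker cKO library. In the germline KO, 2 of the 24 were called lower than in the wild type, beside 3.36% of all genes. They were Ptk2b, at 4.92 FPKM in the germline KO and 61.5 FPKM in the wild type, and Vasp, an actin regulator, at 16.4 FPKM in the germline KO and 85.6 FPKM in the wild type. Lims2, an adaptor of the kinase ILK, was called higher, at 21.8 FPKM in the germline KO and 0.0434 FPKM in the wild type. Of all genes, 2.73% were called higher there. In the normal-marker cKO none of the 24 was called against the conditional control (0.935% of all genes higher, 0.838% lower).

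**Figure D5:**
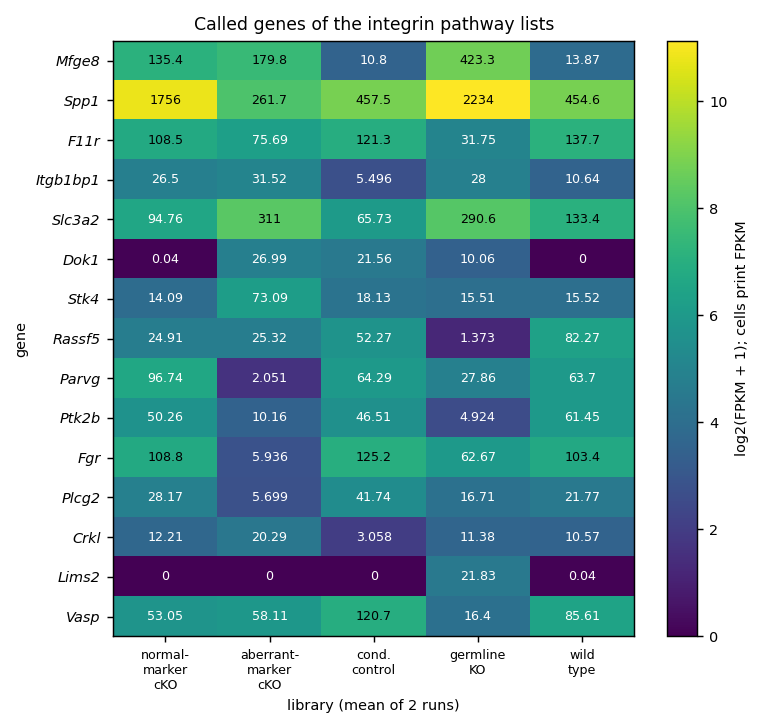
Mean level of the 15 called genes of the ligand, inside-out and outside-in lists (rows) in the 5 libraries (columns). Colour is log2(FPKM + 1) and the printed number is the mean FPKM of 2 runs. Parvg and Fgr are lowest in the aberrant-marker cKO (2.05 and 5.94 FPKM), and Rassf5 in the germline KO (1.37 FPKM).

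For the 3 members called in any comparison, the genes with the most similar pattern over the 5 libraries were sought among 10518 named genes, by the root mean square difference of mean-centred log2(FPKM + 1). Nearest to Itgal were Rgs2, a regulator of G protein signalling (0.07), and Clec4n, the fungal receptor dectin-2 (0.10). Clec4n averaged 96.5 FPKM in the aberrant-marker cKO and 89.3 FPKM in the germline KO, against 455 to 491 FPKM in the other libraries. Nearest to Itgb7 were Eno2, an enolase (0.07), and Rai14, an actin-associated protein (0.14). Eno2 averaged 39.1 FPKM in the aberrant-marker cKO and 5.07 FPKM in the germline KO. Itgam had no close match, the nearest being the stress pseudokinase gene Trib3 (0.54) and the neuropeptide gene Npy (0.73). The points are 5 libraries, so likeness of this kind is a description.

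Transcripts of 1 gene were estimated by the authors' tool from shared reads and were less stable than the gene sums. Itgal had 4 RefSeq transcripts, and in the wild type NM_001253873.1 held 17.4% of Itgal in run 1 and 39.5% in run 2, while NM_001253874.1 held 33.0% and 13.8%. The gene sums of those runs were 74.5 and 75.5 FPKM. The 2 transcripts of Itgam were near even wherever the gene was present, NM_001082960.1 holding 44.8% to 59.8%. Of Itga6, NM_008397.4 held 92.8% and 99.7% in the wild type and 33.1% and 34.8% in the conditional control, at low levels. No isoform difference is therefore drawn from these data.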

How the data were processed

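Per the labels' protocols, RNA of alveolar macrophages (100 pg per sample) went through SMARTer low-input cDNA synthesis with 18 PCR cycles and Ovation library preparation. These mark no strand and carry no molecular identifiers. The authors deposited 1 table of 45913 RefSeq transcripts by 10 samples, read here as FPKM from its values. Per the submitters' processing notes the tools were Bowtie 1.1.2 and eXpress 1.5.1, whose roles are not stated. Not given in the sources used here are the build, annotation and filters. No column was left out.

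For each Entrez gene the FPKM of its transcripts were added up, and log2 was taken after adding 1 FPKM (Python 3.11.15, pandas 2.3.3, numpy 2.4.6). The rule of size stated in the report was applied to all 11336 genes past the filter. Depth was estimated from low values of single-transcript genes longer than 1500 bases, with GENCODE M21 lengths of 32449 transcripts. It is approximate, so no counting interval is given. The members, the gene lists and the rule were chosen with earlier results of these data known. The genes named are the 10 members, further integrin chains at 1 FPKM or more, called genes of the pathway lists (up to 3 per list and comparison by size, and the remaining called ones added after their values were seen), and the 2 nearest genes in pattern to each called member. Some genes of these lists are not reported here. Alternatives were another pseudocount, floor, threshold, scaling, reference library and transcript choice, no filter, and leaving out each run.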

Additional observations from a re-analysis of the deposited data

Results flagged for a closer look

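For 4 members the difference in the aberrant-marker cKO against the conditional control and that in the germline KO against the wild type had opposite signs in every pairing of runs, on log2(FPKM + 1). The values were -1.03 in the aberrant-marker cKO and 0.34 in the germline KO for Itgax, 0.98 and -1.23 for Itgav, 0.43 and -0.06 for Itgb1, and -1.54 and 0.11 for Itgb2. For 3 members the same held of the normal-marker cKO against the conditional control. The values were -1.77 in the normal-marker cKO and 6.65 in the germline KO for Itgam, 0.18 and -2.38 for Itgal, and 0.57 and -1.23 for Itgav. These differences between effects were not tested, since each group is 1 library, and pairings of its runs are no replicate check. How often signs are opposite over all genes was not counted, so these members are not set apart by it. The small germline KO values do not hold their sign throughout: that of Itgb1 was 0.09 under median-of-ratios scaling, and that of Itgb2 was -0.21 against the conditional control. Nor do those of the normal-marker cKO: against the wild type in place of the conditional control, Itgal was at -0.09 and Itgam, listed at 0 in both libraries, showed no difference.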

How the results depend on the processing

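Of 480 recomputed log2 differences of members, 456 kept their direction and their side of the rule, none of the called ones changed sign, 15 gained and 3 lost a call, and 6 values near 0 moved. Members called in the aberrant-marker cKO numbered 2 against the conditional control and 3 against the normal-marker cKO. Both counts were 6 at a threshold of 1 log2 unit (3 higher, 3 lower). With the most abundant transcript of each gene alone both counts were 1, Itgb7. In that setting Itgam lay under the floor of 20 FPKM, with log2 differences of 2.42 and 3.57. Itgal (log2 difference -2.19 against the normal-marker cKO) then missed the rule in a pairing of runs. Leaving out either run gave 3 in both comparisons. The counts of the other comparisons (0 for the normal-marker cKO, 2 for the germline KO, 0 between the controls) were the same under these settings. With a floor of 5 FPKM, Itgae (3.55) and, in the germline KO, Itgb7 (2.74) were called. Itga4 was called at a pseudocount of 0.1 FPKM (2.22) and under median-of-ratios scaling (2.08). Calls over all genes rose with the floor of 5 FPKM and the threshold of 1 log2 unit, to 2180 and 2010 against 890 as reported in the aberrant-marker cKO against the conditional control, to 1064 and 837 against 201 in the normal-marker cKO (319 with the wild type as reference), to 2165 and 1979 against 825 between these fractions, to 1926 and 1713 against 691 in the germline KO, and to 1198 and 902 against 239 between the controls.

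The ratio of α chains to Itgb2 was 0.227 in the normal-marker cKO, 0.329 in the aberrant-marker cKO, 0.228 in the conditional control, 0.401 in the germline KO and 0.319 in the wild type with the most abundant transcript alone. With Itgad added it was 0.267 in the normal-marker cKO and 0.278 in the conditional control. The ratio to Itgb1 was 0.233 in the aberrant-marker cKO and 0.096 in the conditional control with the most abundant transcript alone. With all measured β1 partners it was 0.580 in the normal-marker cKO, 0.455 in the aberrant-marker cKO, 0.604 in the conditional control, 0.768 in the germline KO and 0.530 in the wild type, so that the aberrant-marker cKO, highest with the 3 member chains, was then lowest. No paired analysis was possible because each sample carries a number of its own and the runs of a library are no replicates. Values under 20 FPKM are limited by the low RNA input, and those under 0.0450 FPKM by a single read.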
